A study of Mus musculus with 6 samples.

Results

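The genes described here are 10 chemokine ligands with inflammatory roles: Cxcl1, Cxcl2, Cxcl9, Cxcl10, Ccl2, Ccl7, Ccl3, Ccl4, Ccl6 and Cx3cl1. They were chosen by name out of 23337 genes with a deposited RPKM (read density scaled for gene length and library depth), and were followed across all 6 libraries. Libraries came from Stab1 knockout mice (stab1-/-, KO, 3 libraries) and wild-type mice (WT, 3 libraries), both of the C57BL/6 strain. No treatment or age is given in the labels. Stabilin-1 or Clever-1, the product of Stab1, is a scavenger and adhesion receptor of sinusoidal endothelium, lymphatic endothelium and some macrophages, and the series title concerns its role where spleen vessels meet lymphocytes. RNA came from cells sorted as CD31+ and CD45- after collagenase digestion of spleens, so the sort selected for an endothelial surface protein and against a leukocyte one. The libraries are called KO 2, KO 3, KO 4, WT 1, WT 3 and WT 4, as in the names of the deposited columns. Whether 3 libraries of a genotype stand for 3 animals is not said in the labels, and p-values below therefore measure a spread between libraries that may be technical.

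Chemokines are small secreted proteins that draw leukocytes by binding G protein-coupled receptors, and the CC, CXC and CX3C families are named for the spacing of their first cysteines. Inflammatory chemokines are switched on by cytokines and microbial products, mostly through NF-kappaB and, for CXCL9 and CXCL10, through interferon signalling. Endothelial cells make some of them and hold them on heparan sulfate at the vessel surface, where passing leukocytes meet them.

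Promoter sequence is shown for the 3 CXC genes with the highest levels, which are known NF-kappaB targets, and for Ccl6, the gene called lower in KO. The windows are RefSeq sequence of GRCm38.p6, from 250 bases before to 50 bases after the annotated start, written 5′ to 3′ on the strand of the gene. They lie at chr5:92348840-92349139 (minus strand) for Cxcl10, chr5:90890995-90891294 (plus strand) for Cxcl1, chr5:90903649-90903948 (plus strand) for Cxcl2 and chr11:83593038-83593337 (minus strand) for Ccl6. Capitals mark matches to the NF-kappaB consensus and, in Cxcl10, the upstream match to GAAA, any 2 bases and GAAA again, the core of an interferon response element.
Cxcl10: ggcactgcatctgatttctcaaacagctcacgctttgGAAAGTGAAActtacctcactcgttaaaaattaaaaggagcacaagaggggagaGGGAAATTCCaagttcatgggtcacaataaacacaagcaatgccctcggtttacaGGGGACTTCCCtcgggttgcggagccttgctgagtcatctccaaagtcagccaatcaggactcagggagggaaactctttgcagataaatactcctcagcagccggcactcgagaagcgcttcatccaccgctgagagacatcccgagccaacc
Cxcl1: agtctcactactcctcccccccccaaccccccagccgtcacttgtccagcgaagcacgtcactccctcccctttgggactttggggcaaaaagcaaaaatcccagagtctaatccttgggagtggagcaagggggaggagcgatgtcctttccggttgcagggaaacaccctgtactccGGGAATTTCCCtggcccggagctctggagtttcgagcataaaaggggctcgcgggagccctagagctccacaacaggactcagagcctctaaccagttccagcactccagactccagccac
Cxcl2: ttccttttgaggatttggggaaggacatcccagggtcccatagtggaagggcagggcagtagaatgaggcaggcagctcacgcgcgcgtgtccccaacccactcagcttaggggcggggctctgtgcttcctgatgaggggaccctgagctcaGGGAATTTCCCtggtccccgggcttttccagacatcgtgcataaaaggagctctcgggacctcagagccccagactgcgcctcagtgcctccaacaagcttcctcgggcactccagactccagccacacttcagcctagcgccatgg
Ccl6: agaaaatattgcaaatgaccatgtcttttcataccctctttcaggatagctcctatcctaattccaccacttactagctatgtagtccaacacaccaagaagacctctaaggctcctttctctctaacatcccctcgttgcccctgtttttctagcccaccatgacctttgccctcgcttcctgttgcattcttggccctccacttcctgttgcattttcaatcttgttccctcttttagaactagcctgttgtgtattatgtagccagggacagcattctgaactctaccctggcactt

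Of the 10 genes, 7 had a RefSeq promoter entry, and Ccl2, Ccl4 and Ccl7 were not analysed here in this respect. The NF-kappaB consensus, searched on both strands with overlapping matches merged, was present in 3 of the 7, namely Cxcl1, Cxcl2 and Cxcl10, against 8.46% of 32851 promoter windows of the same length. Cxcl1 held GGGAATTTCCC with its first base 71 bases before the start, and Cxcl2 held the same letters 97 bases before it. Cxcl10 held a pair, GGGAAATTCC at 159 and GGGGACTTCCC at 104 bases before the start. The interferon element core, on either strand, was found in Cxcl10 among the 7, against 3.44% of all windows. TATAAA, kept for these genes only on the strand of the gene, was found in Cxcl9 and Cx3cl1. It was present on either strand in 13.6% of all windows, so the rules differ. Absence of a match says only that the letters are not in this window, and a match is not a measured binding site.

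Stab1, the targeted gene, had 2.32, 2.62 and 2.49 RPKM in KO 2, KO 3 and KO 4, against 21.6, 43.6 and 31.4 RPKM in WT 1, WT 3 and WT 4. Its log2 fold change was -3.40 ± 0.22 (KO minus WT, with its SE, on the log2(RPKM + 0.5) scale used for every fold change below), with an adjusted p of 7.15e-05 in limma. An exact two-sided permutation test of the group means gave p = 0.1, the smallest that 3 libraries against 3 allow. Depth was 37328208 to 48170281 reads in genes per library. All 10 endothelial markers were tested, and Egfl7 was the highest, at 961 ± 85.6 RPKM in KO and 887 ± 44.8 RPKM in WT (SD, n = 3 each). Vwf, von Willebrand factor, was the lowest of them and was called lower, at 0.27 ± 0.23 RPKM in KO and 2.0 ± 0.771 RPKM in WT (SD, n = 3 each, limma adjusted p = 0.0191), having passed the filter through its WT libraries alone. Of 7 sinusoidal endothelial markers, 6 were tested and 3 were called lower in KO, namely Clec4g, Fcgr2b and Cd55. Ptprc, which encodes CD45, lay at 0.0259 to 0.0923 RPKM in KO and 0.0618 to 0.11 RPKM in WT.

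The 10 chemokine genes spanned a wide range of levels in these cells, with Cxcl10 far above the others. Ccl6, a CC chemokine of rodents that acts through CCR1, was called lower in KO, at 1.47 ± 0.284 RPKM against 4.22 ± 0.997 RPKM in WT (SD, n = 3 each). Cx3cl1, Ccl3 and Ccl4 also had every KO library below every WT library but did not pass the adjusted threshold. Cxcl10, Cxcl1, Cxcl2, Ccl2, Ccl7 and Cxcl9 had KO and WT values that overlapped. All 10 genes were above 0 in every library and passed the filter, which asked for 1 RPKM or more in 3 or more libraries, although Ccl4 passed through its WT libraries alone and Ccl3 through 3 WT libraries and 1 KO library. In bulk RNA of sorted cells, fewer cells of a type and less RNA per cell cannot be told apart.

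In the limma fit with Benjamini-Hochberg adjustment over the 11035 genes tested and a threshold of 0.05, 1 of the 10 genes was called, and it was lower in KO. The background was 1.94% of tested genes called in either direction, 1.27% lower and 0.671% higher. At an unadjusted p under 0.05 in limma there were 4 of the 10, against 15.7% of all tested genes. They were the same 4 whose KO libraries all lay below WT. Among them Ccl4 had passed the filter through its WT libraries alone and Ccl3 mainly through its WT libraries, which favours a lower value in KO. Over all tested genes, 20.3% had groups that did not overlap, 9.57% with every KO library below every WT library and 10.7% with every KO library above. The log2 fold change was negative for 6 of the 10 and positive for 4, with a median of -0.09 over the 10 against 0.026 over all tested genes. The 6 include Cxcl10, whose fold change rounds to 0.00.

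**Figure D1:**
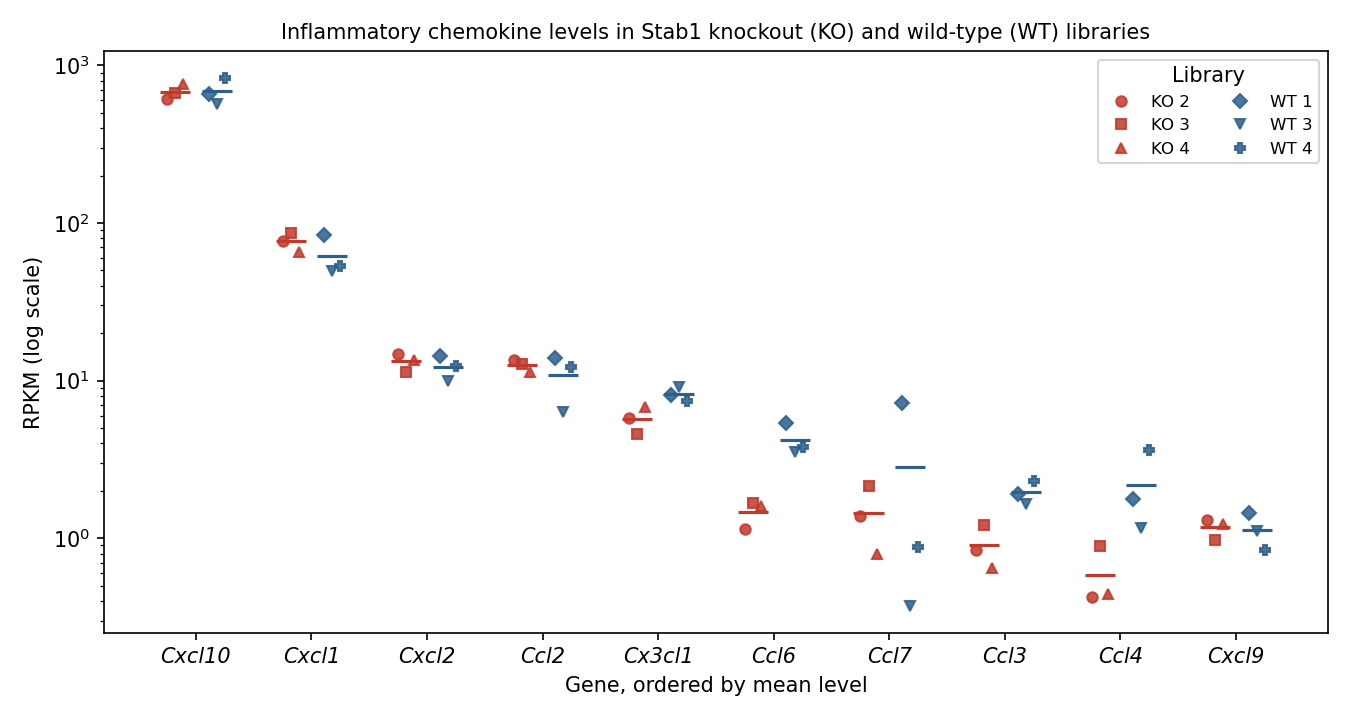
RPKM of the 10 chemokine genes in each of the 3 KO libraries (red) and 3 WT libraries (blue) on a log axis, with genes ordered by their mean over all 6 libraries and horizontal bars at the group means. Cxcl10 lies at 571 to 832 RPKM and Cxcl1 at 49.4 to 86.6 RPKM, apart from each other and from the other 8 genes, while the KO and WT points are separate for Cx3cl1, Ccl6, Ccl3 and Ccl4.

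By mean RPKM over the 6 libraries the order was Cxcl10, Cxcl1, Cxcl2, Ccl2, Cx3cl1, Ccl6, Ccl7, Ccl3, Ccl4 and Cxcl9. Neighbours in that order had separate ranges at Cxcl10 against Cxcl1 and at Cxcl1 against Cxcl2, and overlapping ranges in every later pair. Cx3cl1 was nevertheless above Ccl6 within each of the 3 KO and 3 WT libraries. Cxcl9 was last by its mean but exceeded Ccl4 in all 3 KO libraries and was below it in all 3 WT libraries. Cxcl10 alone made up 84.1%, 84.5% and 88.2% of the summed RPKM of the 10 genes in KO 2, KO 3 and KO 4, against 82.7%, 87.4% and 89.6% in WT 1, WT 3 and WT 4. That sum was 729, 788 and 865 RPKM in the KO libraries, against 795, 654 and 928 RPKM in the WT libraries, so the total overlapped between genotypes.

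Cxcl10 and Cxcl9 encode interferon-induced ligands of CXCR3, which draw activated T cells and NK cells. Cxcl10 had 613, 666 and 763 RPKM in KO 2, KO 3 and KO 4, against 657, 571 and 832 RPKM in WT 1, WT 3 and WT 4. The highest and the lowest value were both WT libraries, and the mean ranked 65 of the 23337 genes. Its group means were 681 ± 75.9 RPKM in KO and 687 ± 133 RPKM in WT (SD, n = 3 each), and its log2 fold change was 0.00 ± 0.14 (limma adjusted p = 0.998). The 95% interval of that fold change ran from -0.32 to 0.32, or 80.1% to 125% of WT. Cxcl10 lies at 5:92346638-92348889 within the longer gene Art3, from which it cannot be told apart by strand in these unstranded libraries. Art3 stood at 44.3 ± 3.78 RPKM in KO and 45.3 ± 7.01 RPKM in WT (SD, n = 3 each).

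Cxcl9, the neighbouring gene at 5:92321331-92328079, was present at a small fraction of that level. It had 1.31, 0.975 and 1.23 RPKM in KO 2, KO 3 and KO 4, against 1.44, 1.12 and 0.844 RPKM in WT 1, WT 3 and WT 4, which overlapped. Its log2 fold change was 0.04 ± 0.21 (95% interval -0.42 to 0.51, limma adjusted p = 0.933). The Cxcl10 level was 469, 683 and 620 times that of Cxcl9 in the KO libraries and 458, 508 and 986 times in the WT libraries, per length in both cases. The 2 genes share an inducer in many cell types, yet in these libraries 1 was near the top of all genes and the other near the filter. Among 26 interferon response genes fixed as a list, 25 were tested and 0 were called by limma in either direction, with 2 at an unadjusted p under 0.05 and a median log2 fold change of -0.02. Those with the smallest p were Gbp7, a guanylate-binding protein, at 13.5 ± 3.37 RPKM in KO and 24.1 ± 8.50 RPKM in WT (SD, n = 3 each, limma adjusted p = 0.164), and Iigp1, an immunity-related GTPase, at 87.7 ± 27.0 RPKM in KO and 163 ± 89.0 RPKM in WT (limma adjusted p = 0.274). WT 4 was the highest library for Gbp7, Iigp1 and Cxcl10, and also for the sum over the list, which was 1094, 1065 and 1107 RPKM in KO 2, KO 3 and KO 4, against 950, 987 and 1495 RPKM in WT 1, WT 3 and WT 4. Cxcl9 went the other way, with its lowest value of all libraries in WT 4.

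Cxcl1 and Cxcl2 encode the neutrophil-attracting ligands of CXCR2. Cxcl1 had 76.6, 86.6 and 65.9 RPKM in KO 2, KO 3 and KO 4, against 83.3, 49.4 and 53.3 RPKM in WT 1, WT 3 and WT 4. The KO libraries lay above WT 3 and WT 4, while WT 1 fell inside the KO range. The means were 76.4 ± 10.4 RPKM in KO and 62.0 ± 18.5 RPKM in WT (SD, n = 3 each), with a log2 fold change of 0.33 ± 0.19 (95% interval -0.09 to 0.75, limma adjusted p = 0.417). Cxcl2 had 14.8, 11.4 and 13.5 RPKM in KO 2, KO 3 and KO 4, against 14.4, 9.91 and 12.3 RPKM in WT 1, WT 3 and WT 4. Its values overlapped, and its log2 fold change of 0.12 ± 0.16 (95% interval -0.25 to 0.49) had a limma adjusted p of 0.746.

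The 2 genes lie close together, at 5:90891245-90893121 and 5:90903899-90905938, and Cxcl1 exceeded Cxcl2 by 5.18, 7.62 and 4.88 times in KO 2, KO 3 and KO 4 and by 5.79, 4.99 and 4.34 times in WT 1, WT 3 and WT 4. Of 8 other tested genes within 1 Mb of each, 1 was called, namely Pf4, which encodes platelet factor 4. Tissue digestion is known to induce immediate early genes, and a list of 31 dissociation and early response genes summed to 7811, 9133 and 8219 RPKM in KO 2, KO 3 and KO 4, against 7894, 7377 and 7149 RPKM in WT 1, WT 3 and WT 4. That sum was highest in KO 3 among KO libraries and in WT 1 among WT libraries, which was also so for Cxcl1, and the part of this response in the Cxcl1 values was not tested. Of the 29 tested, 1 was called higher in KO, the constitutive heat shock protein gene Hspa8, at 199 ± 9.09 RPKM in KO and 74.4 ± 35.7 RPKM in WT (SD, n = 3 each, limma adjusted p = 0.0488). Btg2, an early response gene, had the next smallest p (74.2 ± 3.18 RPKM in KO and 57.9 ± 6.03 RPKM in WT, limma adjusted p = 0.138). The median log2 fold change of the list was 0.22, and 10 of the 29 had an unadjusted p under 0.05.

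Ccl2 and Ccl7 encode ligands of CCR2 that draw monocytes, and lie side by side at 11:82035577-82037452 and 11:82045712-82047525. Ccl2 had 13.6, 12.7 and 11.4 RPKM in KO 2, KO 3 and KO 4, against 13.9, 6.35 and 12.2 RPKM in WT 1, WT 3 and WT 4. WT 3 was the low library and the other 5 were close together. Its log2 fold change was 0.27 ± 0.25 (95% interval -0.29 to 0.82, limma adjusted p = 0.614), and without WT 3 it was -0.06. Ccl7 had 1.38, 2.14 and 0.797 RPKM in KO 2, KO 3 and KO 4, against 7.23, 0.371 and 0.877 RPKM in WT 1, WT 3 and WT 4. These values came from 55, 87 and 26 reads in KO 2, KO 3 and KO 4, against 241, 15 and 32 reads in WT 1, WT 3 and WT 4.

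Ccl7 thus varied more between WT libraries than between genotypes, with a log2 fold change of -0.17 ± 0.67 (95% interval -1.67 to 1.32, limma adjusted p = 0.915) that became 0.77 (adjusted p = 0.302) without WT 1. The ratio of Ccl2 to Ccl7 was 9.81, 5.91 and 14.3 in KO 2, KO 3 and KO 4 and 1.93, 17.1 and 13.9 in WT 1, WT 3 and WT 4. WT 1 also had the highest sum over 13 reticular cell and fibroblast markers, which was 91.7 to 134 RPKM in the KO libraries, against 323, 142 and 139 RPKM in WT 1, WT 3 and WT 4. The 5 mesothelial markers likewise summed to 1.91 to 5.36 RPKM in KO, against 12.6, 1.06 and 6.56 RPKM in WT 1, WT 3 and WT 4. Ccl11, which encodes an eosinophil chemokine, was at 0.0913 to 0.244 RPKM in KO, against 2.68, 0.0369 and 0.796 RPKM in WT 1, WT 3 and WT 4. Of the reticular markers 1 was at 0 in every library, Ccl21a, and 1 of the 10 tested was called, Cxcl13. Cxcl13 alone made up 14.2 to 19.1 RPKM of the reticular sum in KO and 43.7 to 76.0 RPKM of it in WT. The part of such cells in the Ccl7 values was not tested.

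**Figure D2:**
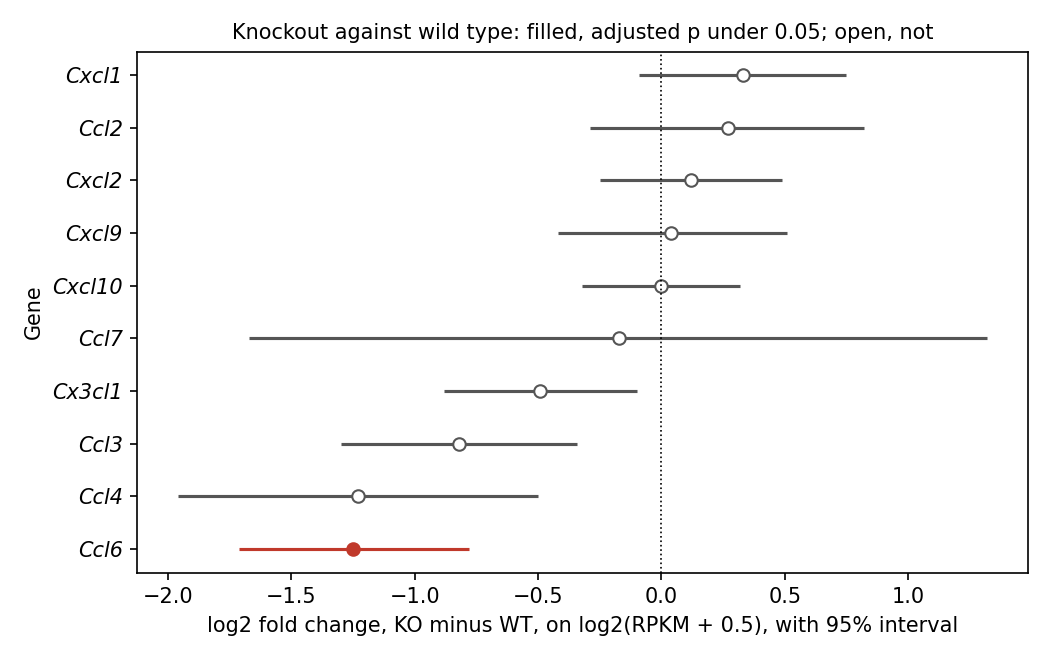
Log2 fold change, KO minus WT, of each of the 10 chemokine genes with its 95% interval from limma on log2(RPKM + 0.5), where a filled point marks an adjusted p under 0.05. Ccl6 is the filled point at -1.25, Ccl4, Ccl3 and Cx3cl1 have intervals below 0, and the widest interval, that of Ccl7, runs from -1.67 to 1.32.

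Ccl6 lies at 11:83587886-83593087 among other CC chemokine genes. It had 1.15, 1.67 and 1.60 RPKM in KO 2, KO 3 and KO 4, from 82, 122 and 94 reads, against 5.36, 3.53 and 3.77 RPKM in WT 1, WT 3 and WT 4, from 321, 256 and 247 reads. Every KO library was lower than every WT library, and the KO mean was 0.35 of the WT mean. The log2 fold change was -1.25 ± 0.21 (95% interval -1.71 to -0.78, limma adjusted p = 0.0191). Ccl6 was lower in KO in each of 17 alternatives, at log2 fold changes of -1.50 to -0.96 with adjusted p between 0.000452 and 0.0931. These refits reuse the same libraries. Since the groups did not overlap, leaving a library out could not turn the direction, so its constancy adds no evidence of its own. The call was lost with WT 4 left out (adjusted p = 0.0553), with KO 2 left out (0.0843), with KO 3 left out (0.062) and when genes under the filter were tested too (0.0931). In the authors' deposited table, Ccl6 had a log2 fold change of -1.50 with an adjusted p of 0.0421, and it was the one gene of the 10 in the authors' deposited list of 117 lower genes, while 0 were in the list of 34 higher genes. By that adjusted p, 1.57% of the 13742 genes of the authors' deposited table were under 0.05, and 1.13% were so and lower in KO.

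Ccl3 and Ccl4 encode macrophage inflammatory proteins, which draw monocytes and lymphocytes. Ccl3 had 0.84, 1.22 and 0.651 RPKM in KO 2, KO 3 and KO 4, from 33, 49 and 21 reads, against 1.91, 1.65 and 2.30 RPKM in WT 1, WT 3 and WT 4, from 63, 66 and 83 reads. The groups did not overlap, and the log2 fold change was -0.82 ± 0.22 (95% interval -1.30 to -0.34, limma adjusted p = 0.103). Ccl4 had 0.427, 0.894 and 0.445 RPKM in KO 2, KO 3 and KO 4, from 14, 30 and 12 reads, against 1.78, 1.17 and 3.62 RPKM in WT 1, WT 3 and WT 4, from 49, 39 and 109 reads. WT 4 was the highest by far, the groups did not overlap, and the log2 fold change was -1.23 ± 0.33 (95% interval -1.96 to -0.50, limma adjusted p = 0.106). The authors' deposited table gave adjusted p of 0.213 for Ccl3 and 0.197 for Ccl4.

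In the RefSeq annotation of GRCm38, Ccl3 spans 11:83647843-83649378 and Ccl4 spans 11:83648624-83664683, which overlap. In the GENCODE annotation their spans do not overlap, and the annotation behind the deposited values is not given in the sources used. The kit does not mark strand, so if both were counted with the RefSeq spans, reads in the shared stretch could not be told apart. Of the 22 other tested genes within 1 Mb of each, Ccl6 was the one called. Ccl9, which encodes a further CCR1 ligand of the same cluster, was under the filter, with 0.287, 0.464 and 0.163 RPKM in KO 2, KO 3 and KO 4, against 0.606, 0.631 and 0.408 RPKM in WT 1, WT 3 and WT 4.

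**Figure D3:**
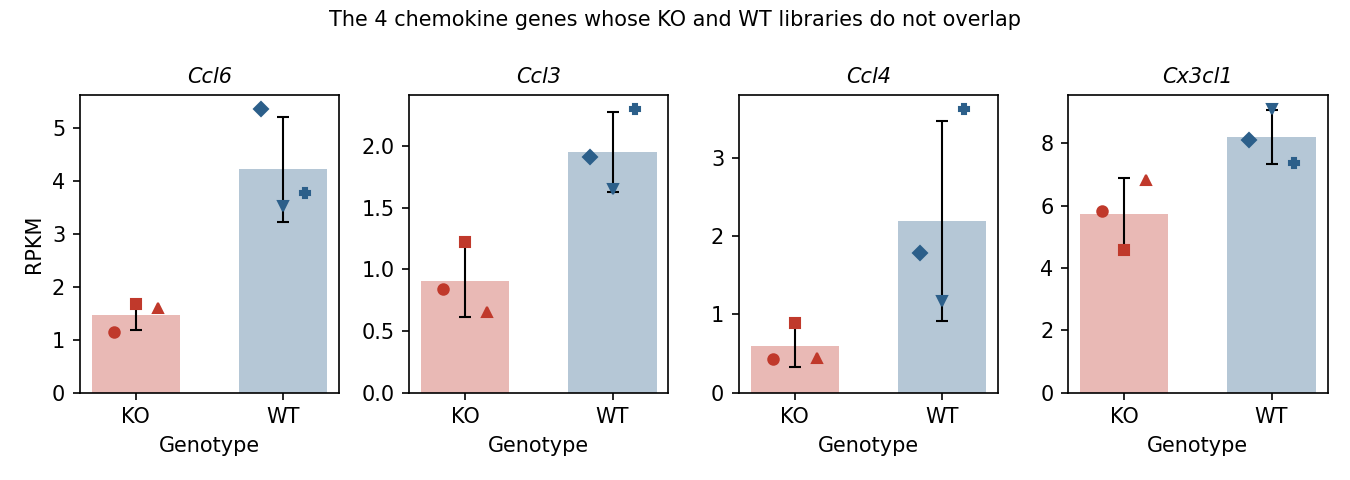
RPKM of the 4 chemokine genes whose KO and WT libraries do not overlap. Bars show the group mean from 0, error bars the SD and points the 3 libraries of each genotype (circle KO 2, square KO 3, triangle KO 4, diamond WT 1, inverted triangle WT 3, plus WT 4). Ccl6 stands at 1.15 to 1.67 RPKM in KO and 3.53 to 5.36 RPKM in WT, and the nearest Cx3cl1 values of the genotypes are 6.84 RPKM in KO 4 and 7.38 RPKM in WT 4.

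CCL3, CCL4 and CCL6 are known chiefly as products of macrophages and other myeloid cells, so levels of myeloid markers are set beside them. Summed over Ccl3, Ccl4 and Ccl6, the level was 2.41, 3.79 and 2.70 RPKM in KO 2, KO 3 and KO 4, against 9.05, 6.35 and 9.68 RPKM in WT 1, WT 3 and WT 4. Each of these genes had every KO library below every WT library, so their sum could not overlap and adds no evidence of its own. Of 17 macrophage and monocyte markers 7 were tested and 0 were called by limma, with 3 at an unadjusted p under 0.05. Their sum was 224, 233 and 262 RPKM in KO 2, KO 3 and KO 4, against 238, 248 and 205 RPKM in WT 1, WT 3 and WT 4, most of it from Vcam1, which endothelial cells also express (187 ± 21.0 RPKM in KO and 173 ± 15.6 RPKM in WT, SD, n = 3 each). That sum overlapped between genotypes. Of the 17, 8 were under 1 RPKM in every library. None of the 17 was at 0 in every library, but the macrophage receptor genes Csf1r, Adgre1 and Fcgr1 did not exceed 0.118, 0.155 and 0.00777 RPKM.

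Single markers pointed in both directions. Cd14, the lipopolysaccharide co-receptor, had the smallest p of the 17 and the higher mean in KO (13.1 ± 2.38 RPKM in KO and 8.36 ± 2.19 RPKM in WT, SD, n = 3 each, limma adjusted p = 0.181). The complement genes C1qa, C1qb and C1qc, under the filter, also had higher means in KO, at 0.383, 0.738 and 0.66 RPKM in KO and 0.203, 0.565 and 0.465 RPKM in WT. Lyz2, lysozyme of myeloid cells, was at 7.21 ± 1.39 RPKM in KO and 13.6 ± 5.84 RPKM in WT (SD, n = 3 each, limma adjusted p = 0.25), and Tyrobp, a myeloid adaptor, at 2.41 ± 0.651 RPKM in KO and 3.59 ± 0.595 RPKM in WT (limma adjusted p = 0.295). WT 4, the highest library for Ccl3 and Ccl4, had the lowest sum of the 17 markers, at 205 RPKM. Vcam1, which endothelial cells also express, made up 155 RPKM of it. Megakaryocyte and platelet markers, 10 of 10 tested with 1 called lower, summed to 59.6 to 77.5 RPKM in KO and 90.4 to 258 RPKM in WT. All 10 had a negative log2 fold change, with a median of -0.76 and 3 at an unadjusted p under 0.05 in limma. Neutrophil markers, 9 with 0 passing the filter, summed to 1.45 to 10.6 RPKM in KO and 0.636 to 16.5 RPKM in WT, and 11 T cell and NK cell markers, none passing the filter, to 0.476 to 1.56 RPKM in KO and 0.535 to 1.87 RPKM in WT. The part of these cells in the levels of Ccl3, Ccl4 and Ccl6 was not tested.

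**Figure D4:**
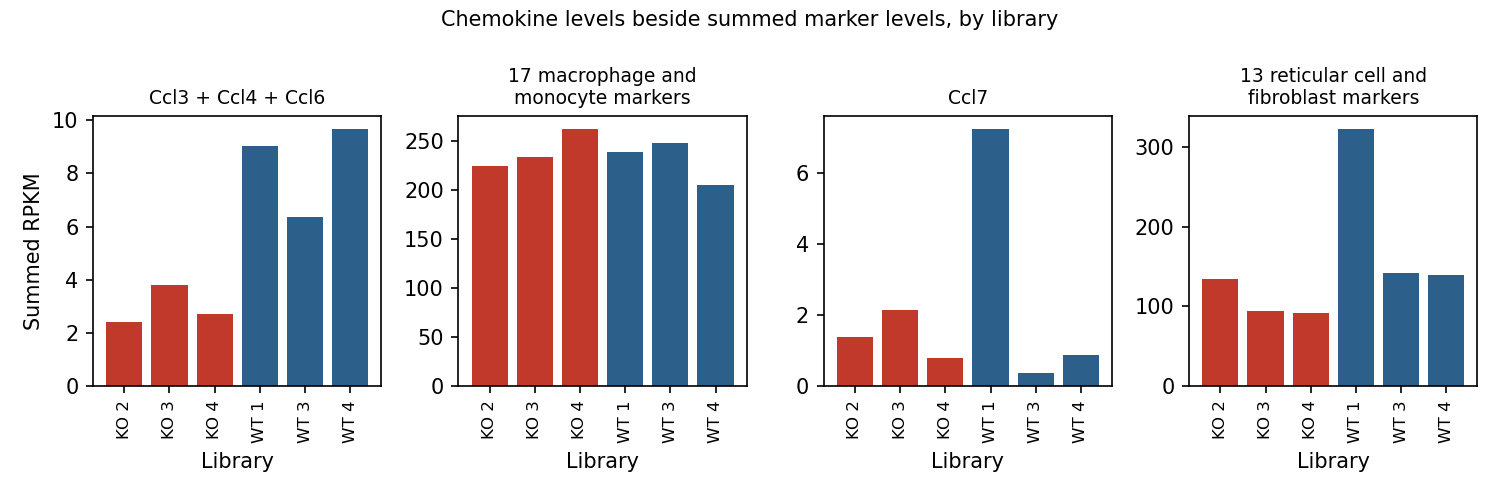
Summed RPKM by library, from 0, for Ccl3, Ccl4 and Ccl6 together, for 17 macrophage and monocyte markers, for Ccl7 and for 13 reticular cell and fibroblast markers, with KO libraries in red and WT libraries in blue and a separate axis for each panel. The chemokine sum is 2.41 to 3.79 RPKM in KO and 6.35 to 9.68 RPKM in WT, a separation already present in each of its genes. The macrophage marker sums, mostly Vcam1, overlap at 224 to 262 RPKM in KO and 205 to 248 RPKM in WT. WT 1 is highest in the Ccl7 and reticular cell panels, at 7.23 and 323 RPKM.

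Cx3cl1, at 8:94772180-94782427, encodes fractalkine, a chemokine that stays tethered to the endothelial membrane until proteases shed it and that binds CX3CR1 on monocytes and lymphocytes. It had 5.82, 4.57 and 6.84 RPKM in KO 2, KO 3 and KO 4, against 8.12, 9.10 and 7.38 RPKM in WT 1, WT 3 and WT 4. The groups did not overlap, with means of 5.74 ± 1.14 RPKM in KO and 8.20 ± 0.867 RPKM in WT (SD, n = 3 each). The log2 fold change was -0.49 ± 0.18 (95% interval -0.88 to -0.10), with an unadjusted p of 0.0193 and a limma adjusted p of 0.22. Adam10 and Adam17, its sheddases, were among 7 listed proteases that shed or trim chemokines, of which 6 were tested and 0 were called by limma, with 1 at an unadjusted p under 0.05. That gene was Dpp4, a dipeptidyl peptidase that trims CXCL10, at 3.13 ± 0.585 RPKM in KO and 4.93 ± 0.603 RPKM in WT (SD, n = 3 each, limma adjusted p = 0.163). Mmp2, a matrix metalloprotease, came next, at 6.13 ± 1.24 RPKM in KO and 7.28 ± 0.792 RPKM in WT (limma adjusted p = 0.526).

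Within groups, single libraries did not carry the 10 genes uniformly. WT 3 was the lowest WT library for 8 of the 10 and the highest for 1, while WT 1 was the highest for 6 and the lowest for 0. Among KO libraries, KO 3 was the highest for 5 and the lowest for 3, KO 4 the highest for 2 and the lowest for 4, and KO 2 the highest for 3 and the lowest for 3. The exceptions were Cxcl9, which was lowest in WT 4, and Cx3cl1, which was highest in WT 3.

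Receptors of the 10 ligands were close to absent in these CD45- cells, and none of the 8 listed passed the filter. Cxcr1 was listed at 0 in every library. Cxcr2 lay at 0 to 0.346 RPKM in KO and 0.0158 to 0.136 RPKM in WT, and Cxcr3 was listed at 0 in KO and at 0 to 0.109 RPKM in WT. Ccr1 lay at 0 to 0.285 RPKM in KO and 0 to 0.102 RPKM in WT, and Ccr3 at 0.015 to 0.108 RPKM in KO and 0.00604 to 0.0803 RPKM in WT. For Ccr2 and Cx3cr1, no library of either genotype exceeded 0.0386 RPKM. Of 5 genes listed as atypical receptors, a class that binds chemokines without signalling through G proteins, all were tested. None were called by limma, and 1 had an unadjusted p under 0.05. Ackr3 stood at 904 ± 104 RPKM in KO and 819 ± 91.6 RPKM in WT (SD, n = 3 each). Ackr2, which scavenges inflammatory CC chemokines such as CCL2, stood at 107 ± 9.45 RPKM in KO and 89.6 ± 9.32 RPKM in WT (SD, n = 3 each, limma adjusted p = 0.30). Ackr1, which binds both CC and CXC chemokines, ranged from 3.98 to 32.4 RPKM in KO and from 1.16 to 26.8 RPKM in WT (limma adjusted p = 0.515).

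Of the 27 other chemokine ligands in the table, 4 were at 0 in every library (Cxcl15, Ccl1, Ccl21a and Ccl22), 20 in all were under the filter and 7 were tested, of which 2 were called and both were lower in KO. Cxcl13, the follicular B cell chemokine, had 16.0 ± 2.70 RPKM in KO and 62.4 ± 16.7 RPKM in WT (SD, n = 3 each), a log2 fold change of -1.91 ± 0.20 (limma adjusted p = 0.00159). Pf4 had 17.6 ± 2.01 RPKM in KO and 59.0 ± 26.7 RPKM in WT (SD, n = 3 each), a log2 fold change of -1.62 ± 0.26 (limma adjusted p = 0.016). The median over the 7 was -0.30. Cxcl16, a membrane-bound ligand like fractalkine, was at 155 ± 4.38 RPKM in KO and 131 ± 10.7 RPKM in WT (SD, n = 3 each, limma adjusted p = 0.257).

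Among genes of the pathways that switch chemokines on, a single gene was called. Of 21 genes of the NF-kappaB pathway and its feedback, 21 were tested and 0 were called by limma, with 3 at an unadjusted p under 0.05 and a median log2 fold change of 0.11. Chuk, which encodes the kinase IKK-alpha, was at 15.5 ± 3.80 RPKM in KO and 22.3 ± 1.98 RPKM in WT (SD, n = 3 each, limma adjusted p = 0.178), and Tnfaip3, the feedback inhibitor A20, was at 20.5 ± 2.43 RPKM in KO and 15.4 ± 2.27 RPKM in WT (limma adjusted p = 0.224). Among 21 receptors and adaptors that induce chemokines, 20 were tested and 1 was called, lower in KO. That gene was Irak4, the kinase downstream of Toll-like and interleukin-1 receptors, with 1.99, 1.96 and 2.12 RPKM in KO 2, KO 3 and KO 4, against 7.56, 8.04 and 8.12 RPKM in WT 1, WT 3 and WT 4. Its log2 fold change was -1.73 ± 0.15 (limma adjusted p = 0.00042), while the median of the list was 0.07. Cd14, a co-receptor for lipopolysaccharide, had the next smallest p of that list, at 13.1 ± 2.38 RPKM in KO and 8.36 ± 2.19 RPKM in WT (SD, n = 3 each, limma adjusted p = 0.181).

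Lists of genes that act beside or after chemokine transcription held no call by limma. Of 15 endothelial inflammatory activation genes, 9 were tested, 0 were called and 0 had an unadjusted p under 0.05, with a median log2 fold change of 0.11. The smallest p were those of Cebpd, at 38.5 ± 5.92 RPKM in KO and 31.8 ± 7.98 RPKM in WT (SD, n = 3 each, limma adjusted p = 0.444), and of Csf3, at 0.287 to 15.8 RPKM in KO and 0.161 to 5.63 RPKM in WT (limma adjusted p = 0.516). All 11 regulators of chemokine mRNA decay were tested, with 0 called, 1 at an unadjusted p under 0.05 and a median of -0.10. Rc3h2, which encodes roquin-2, was at 1.94 ± 0.486 RPKM in KO and 2.77 ± 0.0933 RPKM in WT (SD, n = 3 each, limma adjusted p = 0.312), and Elavl1, which encodes the stabilising protein HuR, at 37.9 ± 0.787 RPKM in KO and 33.2 ± 2.28 RPKM in WT (limma adjusted p = 0.376). Of 15 heparan sulfate synthesis genes, all tested, 0 were called and 1 had an unadjusted p under 0.05, with a median of 0.06. Hs3st1, a heparan sulfate sulfotransferase, was at 28.2 ± 3.03 RPKM in KO and 19.4 ± 2.35 RPKM in WT (SD, n = 3 each, limma adjusted p = 0.0873), and Sulf1, a heparan sulfate sulfatase, at 1.58 ± 0.188 RPKM in KO and 1.21 ± 0.315 RPKM in WT (limma adjusted p = 0.516).

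For each of the 10 genes the most similar pattern over the 6 libraries was sought among the other tested genes by Pearson's r of log2(RPKM + 0.5), given as a description. Cxcl9 was most like Ccl19 (r = 0.99), a T zone chemokine gene, and Srr (0.988). Cxcl1 was most like Ssr2 (0.997) and Mrps24 (0.996), Cxcl2 like Faim and Wdr5b (0.985 for both) and Cxcl10 like Acad11 (0.991) and Nup43 (0.978). Ccl2 was most like Dnajc24 (0.994) and Pldn (0.992), Ccl7 like 1700008J07Rik (0.993) and Has1 (0.988), and Cx3cl1 like Cnot6l (0.99) and Rrbp1 (0.989). Ccl6 was most like Zfp958 (0.994) and Pln (0.992), Ccl4 like Sgcz (0.994) and Snx24 (0.974), and Ccl3 like Tmed4 (0.985) and 2010111I01Rik (0.97). With 6 points drawn from the same libraries such values are common: r was still 0.932 to 0.986 for genes 8 places further down these rankings.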

How the data were processed

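Per the file headers, the authors deposited RPKM of 23337 genes in 6 libraries and a table of 13742 genes with log2 fold changes and p-values. The build mm10 and the tools STAR 2.5.2b, Subread, edgeR and limma are listed in the submitters' processing notes, without order or settings. The labels' protocols name SMART-Seq and Nextera XT, which do not mark strand. Deposited columns carry numbers other than the labels' replicate numbers, so each was assigned to its genotype only.

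The values are not counts, so limma 3.58.1 (R 4.3.3) was run with genotype as its one term on log2(RPKM + 0.5), with an intensity trend, over the 11035 genes that reached 1 RPKM in 3 or more libraries, with Benjamini-Hochberg adjustment at 0.05. The fit was tested on simulated data. A pseudocount of 0.5 understates changes of low genes such as Ccl3, Ccl4 and Ccl6. For 17672 of 17683 genes above 0 (99.94%), values were whole multiples of 1 read's worth within 0.001, which gave reads per gene and depth. Reads are PCR copies, not molecules.

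The 10 genes and all lists were chosen with earlier results of these data known. The text names the 10, Stab1, up to 4 called genes and at least 2 of smallest p per list, receptors, marker extremes and the 2 most similar genes each. Others (such as Art3, Ccl9, Ccl11, C1qa, C1qb, C1qc, Cxcl16, Lyz2 and Ackr3) were chosen after their values were seen, and 1 listed gene is not reported here. Of list entries, 193 in pathway lists and 111 in marker lists matched by symbol, 4 more in each by an older symbol, and 4 were not matched. Positions, promoters and figures used RefSeq tables, Python 3.11.15, scipy 1.17.1 and matplotlib 3.10.9. Alternatives varied pseudocount, filter, scaling, variance model, library weights, voom on recovered reads, GC and length trends, a block on column numbers, and each library left out.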

Additional observations from a re-analysis of the deposited data

How the results depend on the processing

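Stab1 stayed lower and called in all 18 alternatives (log2 fold change -3.66 to -3.16). The count of called genes, 214 (74 higher, 140 lower), was 77 with no filter and 3653 with library quality weights (1772 higher, 1881 lower), and 56 to 418 with 1 library left out (93 without WT 4, 83 without KO 2, 56 without KO 3, 418 without KO 4). With GC and length trends removed, an alternative chosen after seeing the data, it was 186, but split 87 higher and 99 lower. Of the 10 chemokines, 1 was called, against 0 with no filter, 0 with a filter of 5 RPKM, which drops Ccl6, Ccl3, Ccl4, Ccl7 and Cxcl9 from the test, and 6 with quality weights (1 higher, 5 lower). With 1 library left out it was 0 to 1 (0 without WT 4, KO 2 or KO 3). With quality weights the further calls were Ccl4 (-1.85, adjusted p = 0.000976), Ccl3 (-0.96, 0.00221), Cxcl1 (0.50, 0.00708), Cx3cl1 (-0.40, 0.0315) and Cxcl10 (-0.31, 0.0459). These calls stand beside 3653 called of all 11035 genes tested with the same weights. Ccl4 had passed the filter through its WT libraries alone and Ccl3 mainly through its WT libraries. The cause of the larger counts with quality weights was not tested.

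Directions turned for 5 genes that were not called, among them Cxcl10, whose fold change in the main fit rounds to 0.00. Cxcl10 was at 0.01 with median centring, 0.03 with GC and length trends removed, and -0.13 to 0.15 with 1 library left out (0.15, 0.07 and 0.01 without WT 4, KO 2 and KO 3). Ccl7 was at 0.39 with quality weights, 0.09 with voom, and -0.81 to 0.77 with 1 library left out (0.77 and 0.09 without WT 1 and KO 4). With 1 library left out, Cxcl2 ranged from -0.02 (without WT 3) to 0.24, Ccl2 from -0.06 (without WT 3) to 0.48, and Cxcl9 from -0.09 (without WT 4; -0.02 without KO 2) to 0.17. Leaving out a library keeps 2 in 1 genotype, and the fit then pools the spread. The planned replicate block was not run, because the deposited columns do not carry the labels' replicate numbers. A replicate block on the columns' own numbers, chosen after seeing the data, called 355 genes (111 higher, 244 lower) and 1 of the 10 chemokines, Ccl6 (-0.96, adjusted p = 0.0359), with Stab1 at -3.62, Cxcl10 turned to 0.05 and Ccl7 to 0.76. That block compares within number 3 and number 4 only, whose libraries deviated from their group means with a correlation of 0.19 in both pairs, against -0.16 to 0.09 for libraries of unlike number. With 2 shared numbers and no label that ties them, it cannot be told whether these libraries share more than a number. At 12 to 241 reads, Ccl3, Ccl4 and Ccl7 carry much counting error. Ccl6, at 82 to 321 reads, and Cxcl9, at 112 to 189 reads, also rest on few reads. The small number of libraries limits all 10 genes.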
